A study of Mus musculus with 12 samples.

Results

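The genes described here make, import and use creatine: Gatm and Gamt, which build it, Slc6a8, which carries it into the cell, and the creatine kinases Ckb and Ckmt1. They were chosen by symbol, with earlier results of these data known. All 5 of 5 matched 1 row each among the 46072 Ensembl genes of the authors' deposited table. The cells came from the bone marrow of C57/BL/6J mice aged 6 to 8 weeks with no transgene or deletion named in the labels. Osteoclasts, which resorb bone and hold several nuclei, were grown with RANKL (50 ng/ml) added to M-CSF (30 ng/ml). Immature dendritic cells were grown with GM-CSF (20 ng/ml). Bone marrow macrophages were grown with M-CSF (30 ng/ml) alone. Osteoclast and macrophage precursors first had 5 days in M-CSF at 100 ng/ml, all differentiations took 8 to 10 days, and Accutase removed cells with a single nucleus from the osteoclast dishes, per the labels. Each cell type has 4 RNA sequencing libraries, 12 in all, and the 3 cell types of each of the 4 experiments shared a mouse. These are bulk cultures, so fewer cells of a type and less RNA per cell cannot be told apart.

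Creatine is built in a pair of steps. The mitochondrial enzyme Gatm joins arginine and glycine into guanidinoacetate, and the cytosolic enzyme Gamt methylates it with S-adenosylmethionine. Many cells instead take creatine from their surroundings through the sodium-dependent transporter Slc6a8. Creatine kinases move a phosphate between ATP and creatine: Ckmt1 does so in the space between the mitochondrial membranes, where ATP leaves the matrix, and Ckb does so in the cytosol, close to enzymes that spend ATP. In mice, loss of Ckb is known to lower bone resorption by osteoclasts.

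The promoters of the kinases and of Gatm are shown because the kinases were higher and Gatm lower in osteoclasts than in either other cell type. They are 300 bases long, from 250 bases before to 50 after the RefSeq start in GRCm38.p6, written 5′ to 3′ on the gene's strand, and capitals mark the CCAAT box, the TATA box (TATAAA) and the GC box (GGGCGG) on either strand.
Ckb, chr12:111672289-111672588, minus strand: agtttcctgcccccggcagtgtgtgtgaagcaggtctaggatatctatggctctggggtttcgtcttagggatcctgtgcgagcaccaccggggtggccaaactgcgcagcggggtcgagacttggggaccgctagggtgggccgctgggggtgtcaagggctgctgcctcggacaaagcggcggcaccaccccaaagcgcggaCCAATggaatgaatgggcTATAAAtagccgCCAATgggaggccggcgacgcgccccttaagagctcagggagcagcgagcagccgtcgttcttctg
Ckmt1, chr2:121357526-121357825, plus strand: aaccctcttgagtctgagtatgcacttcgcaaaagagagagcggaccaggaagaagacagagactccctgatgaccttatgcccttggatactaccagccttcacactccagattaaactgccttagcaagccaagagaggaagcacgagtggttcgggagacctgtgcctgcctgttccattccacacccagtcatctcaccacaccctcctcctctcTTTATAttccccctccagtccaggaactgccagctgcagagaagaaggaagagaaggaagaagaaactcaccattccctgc
Gatm, chr2:122611228-122611527, minus strand: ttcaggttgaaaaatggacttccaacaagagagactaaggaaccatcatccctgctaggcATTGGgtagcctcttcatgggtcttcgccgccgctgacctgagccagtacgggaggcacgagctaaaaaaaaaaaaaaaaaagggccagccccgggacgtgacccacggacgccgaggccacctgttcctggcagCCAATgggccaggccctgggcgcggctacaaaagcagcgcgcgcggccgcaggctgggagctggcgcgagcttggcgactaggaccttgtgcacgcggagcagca

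The Ckb promoter held TATAAA with its first base at position -28 from the start, between CCAAT boxes at -46 and -16. The Ckmt1 promoter printed here held TATAAA on the opposite strand at -31 and no CCAAT. The Gatm promoter held CCAAT at -55 and, on the opposite strand, at -190, and no TATAAA. Of 32851 promoters of this length, 13.6% held TATAAA, 37.4% held CCAAT and 35.7% held GGGCGG on either strand. The AP-1 motif TGANTCA, present in 7.81% of promoters, was in none of these 3 windows. The NFAT motif GGAAA (61.3% of promoters) was in Ckb alone of the 3, on the opposite strand at -248, and the PU.1 motif GAGGAAG (13.6%) in Ckmt1 alone, at -113. No matches overlapped in these windows, the E-box CACGTG (7.15%) was in none of the 3, and a match is a string of letters, not a measured binding site. RefSeq gave 5 promoters for 4 of the 5 genes, among them a further Ckmt1 start (chr2:121358360-121358659), whose window held CCAAT on the opposite strand at -242, no TATAAA and no GAGGAAG.

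The values behind all comparisons are the authors' means of normalised counts over the 4 libraries of a cell type. They sum to 2.424e+07 in osteoclasts, 2.773e+07 in dendritic cells and 2.502e+07 in macrophages. Most marker genes followed the labels: 9 of 9 osteoclast markers were higher in osteoclasts than in macrophages, and 10 of 10 dendritic cell markers were higher in dendritic cells than in macrophages, while 7 of 8 macrophage markers were lower in osteoclasts than in macrophages, by the authors' deposited table. Of the osteoclast markers, however, 7 of 9 were higher in osteoclasts than in dendritic cells, and 5 of 9 were higher in dendritic cells than in macrophages. Dcstamp, needed for cell fusion, averaged 4231 in osteoclasts and 7666 in dendritic cells, and Ocstamp 1589 and 2583, by the authors' deposited table; neither difference was called (adjusted p = 0.381 and 0.114). Calls are the authors' own, at an adjusted p under 0.05, and ± on a log2 fold change gives a standard error worked back from that test's p. The shares called by the authors' deposited table were 29.3% of 17822 genes tested for osteoclasts against macrophages, 36.9% of 21217 for osteoclasts against dendritic cells and 36.7% of 20730 for dendritic cells against macrophages. Of the called genes, 45.4% were higher in osteoclasts than in dendritic cells and 55.4% were higher in dendritic cells than in macrophages. With the totals of the means made equal these shares were 61.4% and 42.8%, with shifts of 0.194 and -0.148 in log2 fold change.

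Osteoclasts had far more RNA of both kinases than either other cell type, less Gatm, and the highest mean of Slc6a8. Dendritic cells had the lowest means of Ckb, Slc6a8, Gamt and Ckmt1. The counts of calls that follow describe genes chosen with earlier results known and are no test. Against macrophages, 2 of 5 genes were called higher and 1 lower in osteoclasts, where 14.5% and 14.7% of all genes tested were called in those directions. Against dendritic cells, 4 of 5 were called higher and 1 lower in osteoclasts, where the shares of all genes were 16.8% and 20.1%. Between dendritic cells and macrophages, 0 of 5 were called higher and 3 lower in dendritic cells (20.3% and 16.4% of all genes), with no further gene at an unadjusted p under 0.05 in the authors' DESeq2 test. The median log2 fold change of the 5 genes was 0.67, 2.40 and -0.95 in these comparisons, against -0.03, -0.05 and 0.05 over all genes tested.

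**Figure D1:**
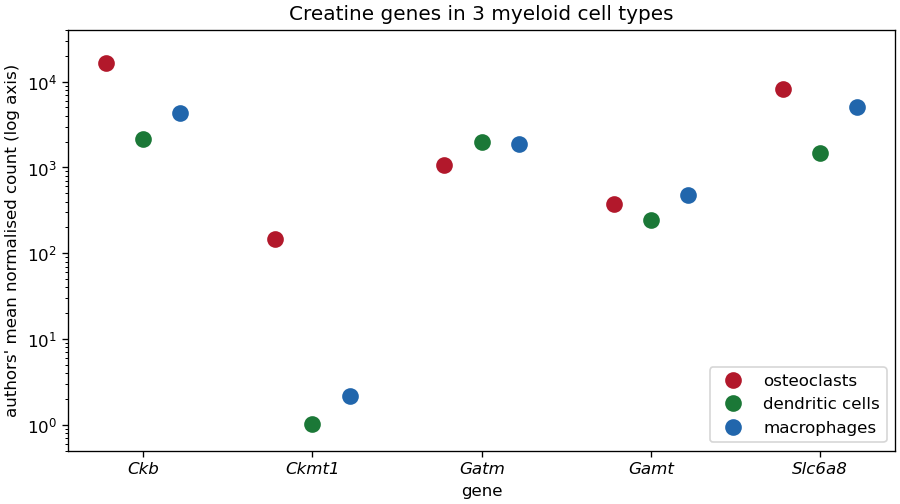
Authors' mean normalised count (log axis) of the 5 creatine genes in osteoclasts, dendritic cells and macrophages, 1 point per cell type, the mean of 4 libraries. Osteoclasts stand highest for Ckb (16362), Ckmt1 (145) and Slc6a8 (8132) and lowest for Gatm (1067).

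Ckb, the brain-type cytosolic kinase (chromosome 12, 111669361 to 111672338, GRCm38), was the most abundant creatine gene in each cell type per length of its exons. Its mean normalised count was 16362 in osteoclasts, 2122 in dendritic cells and 4284 in macrophages by the authors' deposited table. The order was thus osteoclasts, then macrophages, then dendritic cells, and each step passed the test. Osteoclasts exceeded macrophages 3.82-fold (log2 fold change 1.89 ± 0.32, adjusted p = 4.2e-08 by the authors' deposited table). Osteoclasts exceeded dendritic cells 7.71-fold (2.88 ± 0.32, adjusted p = 1.31e-18 by the authors' deposited table). In dendritic cells Ckb fell to a level 2.02-fold under that of macrophages (-0.99 ± 0.32, adjusted p = 0.00607 by the authors' deposited table). Values per library are not given for Ckb, Slc6a8 or Gatm, because recovery of whole reads was tried only for means of at most 500, a limit set beforehand.

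Ckmt1, the ubiquitous mitochondrial kinase (chromosome 2, 121357714 to 121363737), was close to absent outside osteoclasts. Its osteoclast libraries held 161, 121, 201 and 99 reads. Its dendritic cell libraries held 1, 0, 0 and 3 reads, and its macrophage libraries held 6, 1, 0 and 2. Every osteoclast library lay above every other library, and the dendritic cell and macrophage libraries overlapped at this depth. The normalised reads averaged 145 ± 44.9 in osteoclasts, 1.02 ± 1.45 in dendritic cells and 2.17 ± 2.52 in macrophages (SD, n = 4 each). Osteoclasts exceeded macrophages 66.9-fold by the ratio of means (log2 fold change 5.75 ± 0.53, adjusted p = 1.37e-25 by the authors' deposited table). They exceeded dendritic cells 142-fold (6.52 ± 0.62, adjusted p = 1.56e-24 by the authors' deposited table). The difference between dendritic cells and macrophages was not called (-0.77 ± 0.72, 95% interval -2.18 to 0.63, adjusted p = 0.45 by the authors' deposited table). The low groups rest on 4 and 9 reads in all: without macrophage library a, which holds 6 of the 9, the log2 ratio of osteoclasts to macrophages with a pseudocount of 1 was 6.21 in place of 5.53. Without dendritic cell library d, the log2 ratio of osteoclasts to dendritic cells was 6.77 in place of 6.18. Ckmt1 shares 10 exonic bases with Strc on the other strand, whose mean was 0.248 in osteoclasts, 0.509 in dendritic cells and 0 in macrophages.

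The other creatine kinases were at or near 0. Ckm, the muscle-type kinase, held 2, 0, 0 and 1 reads in the osteoclast libraries, 5, 0, 0 and 7 in the dendritic cell libraries and 0, 1, 0 and 0 in the macrophage libraries. It was not called in either comparison with dendritic cells and had no adjusted p for osteoclasts against macrophages. Ckmt2, the mitochondrial kinase of striated muscle, was at 0 in all 12 libraries. Per length of exons, the kinases together came to 755 on the TPM scale (computed here from the authors' means) in osteoclasts, 78.2 in dendritic cells and 194 in macrophages. Ckb was 98.98%, 99.8% and 99.94% of those sums, and Ckmt1 was 1.02% of the osteoclast sum.

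Slc6a8, the creatine transporter (chromosome X, 73673150 to 73682502), had mean normalised counts of 8132 in osteoclasts, 1488 in dendritic cells and 5052 in macrophages by the authors' deposited table. Osteoclasts exceeded dendritic cells 5.46-fold (log2 fold change 2.40 ± 0.29, adjusted p = 5.88e-15 by the authors' deposited table). In dendritic cells the transporter fell to a level 3.39-fold under that of macrophages (-1.73 ± 0.29, adjusted p = 3.81e-08 by the authors' deposited table). The osteoclast mean was 1.61-fold that of macrophages, a difference that was not called (0.67 ± 0.29, 95% interval 0.10 to 1.25, adjusted p = 0.07 by the authors' deposited table). With the totals of the means made equal the adjusted p recomputed from the authors' p-values was 0.0491, which is under the threshold.

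Slc16a12, a transporter of the monocarboxylate family known to carry creatine, was scarce. Its libraries held 3, 5, 10 and 6 reads in osteoclasts, 0 in each of the 4 dendritic cell libraries, and 2, 13, 1 and 9 reads in macrophages. Set against 3 reads over the 4 dendritic cell libraries, its mean was at least 7.84-fold higher in osteoclasts. Dendritic cells were likewise at least 7.97-fold lower than macrophages. Both bounds take the osteoclast or macrophage mean as exact. Without macrophage library b, which holds 13 of the reads, the bound against macrophages was 5.11-fold. It was called in both (adjusted p = 0.000896 and 0.000805 by the authors' deposited table). Osteoclasts and macrophages overlapped, and their difference was not called (-0.02 ± 0.75, 95% interval -1.49 to 1.44, adjusted p = 0.993 by the authors' deposited table).

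Gatm, the first enzyme of creatine synthesis (chromosome 2, 122594467 to 122611303), ran the other way from the kinases. Its mean normalised count was 1067 in osteoclasts, 1994 in dendritic cells and 1868 in macrophages by the authors' deposited table. Osteoclasts were 1.75-fold lower than macrophages (log2 fold change -0.80 ± 0.26, adjusted p = 0.00928 by the authors' deposited table). They were 1.87-fold lower than dendritic cells (-0.89 ± 0.26, adjusted p = 0.00213 by the authors' deposited table). The dendritic cell and macrophage means, next to each other in the order, gave a difference that was not called (0.09 ± 0.26, 95% interval -0.41 to 0.59, adjusted p = 0.833 by the authors' deposited table).

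**Figure D2:**
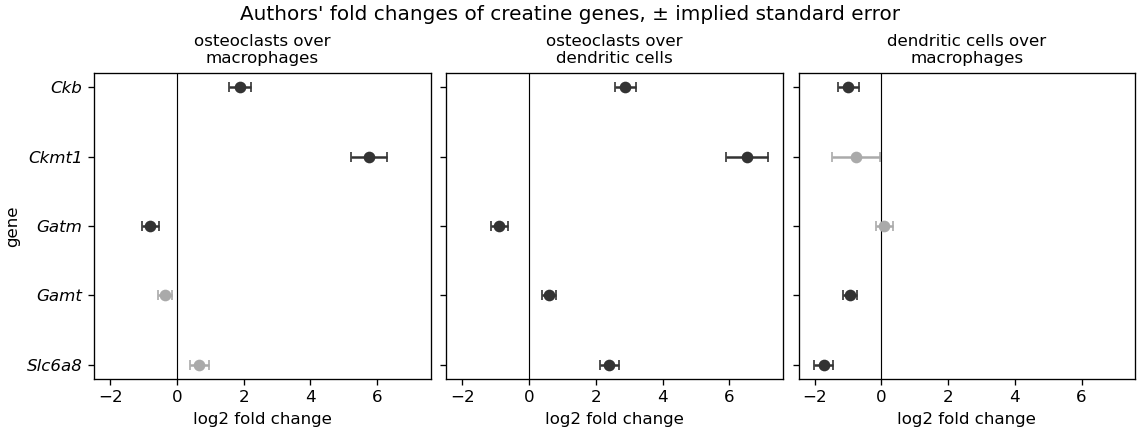
Authors' log2 fold changes of the 5 creatine genes in each comparison, with bars of ± 1 standard error implied by the authors' p and grey points for genes not called. Ckmt1 lies at 5.75 and 6.52 in the comparisons of osteoclasts, and Gatm lies left of 0 in both (-0.80 and -0.89).

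Gamt, the methyltransferase that completes creatine (chromosome 10, 80258151 to 80261012), was lowest in dendritic cells. Its osteoclast libraries had 382, 317, 407 and 397 normalised reads. Its dendritic cell libraries had 335, 183, 239 and 231, and its macrophage libraries 375, 606, 417 and 529. All 4 dendritic cell libraries lay below all 4 macrophage libraries, while the osteoclast libraries overlapped both. The means were 376 ± 40.4 in osteoclasts, 247 ± 63.5 in dendritic cells and 482 ± 105 in macrophages (SD, n = 4 each). In dendritic cells Gamt fell to a level 1.95-fold under that of macrophages (log2 fold change -0.95 ± 0.21, adjusted p = 2.35e-05 by the authors' deposited table). Osteoclasts exceeded dendritic cells 1.52-fold (0.60 ± 0.21, adjusted p = 0.0129 by the authors' deposited table), a call lost at a threshold of 0.01. The difference between osteoclasts and macrophages was not called (-0.35 ± 0.21, 95% interval -0.76 to 0.05, adjusted p = 0.197 by the authors' deposited table).

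For Ckmt1 and Gamt, whose reads per library were recovered, an exact two-sided permutation test of 4 libraries against 4 was run in each comparison. The smallest p it can give is 0.0286. It gave that value for Ckmt1 in osteoclasts against macrophages and against dendritic cells, and for Gamt in dendritic cells against macrophages. Adjusted over the 6 exact tests this is 0.0571, so none passes at 0.05. The exact p was 0.0571 (adjusted 0.0857) for Gamt in osteoclasts against dendritic cells and 0.143 (adjusted 0.171) in osteoclasts against macrophages. For Ckmt1 in dendritic cells against macrophages it was 0.629 before and after adjustment.

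**Figure D3:**
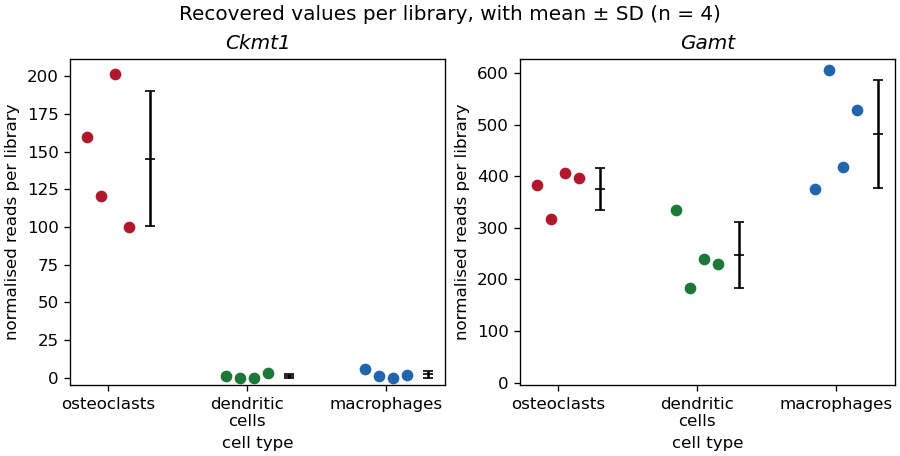
Recovered normalised reads per library of Ckmt1 (left) and Gamt (right) in osteoclasts, dendritic cells and macrophages, each point a library, with the mean ± SD (n = 4) beside them. The Ckmt1 libraries of osteoclasts run from 99.8 to 201 and no other library passes 5.75, whereas the Gamt ranges of osteoclasts overlap both other cell types.

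Levels of different genes were set beside each other only after division by exon length, on the TPM scale. There Ckb stood at 747 in osteoclasts, 78.1 in dendritic cells and 194 in macrophages, which is rank 147, 1761 and 740 of 45138 genes with a length. Slc6a8 stood at 206, 30.4 and 127 in the same order of cell types. Gatm stood at 47, 70.7 and 81.5, and Gamt at 34.4, 18.2 and 43.7. The ratio of Gatm to Gamt was thus 1.37 in osteoclasts, 3.89 in dendritic cells and 1.87 in macrophages, and was not tested. Exon lengths are merged over all annotated transcripts, so they overstate the length of genes with rare long isoforms. For Ckb the merged exons came to 2895 bases in 2 blocks, nearly the whole gene, so its levels and ranks per length may be too low.

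Genes with the most similar profile over the 3 cell types were sought among 12563 genes, by the distance between centred log2 means with a pseudocount of 1. Nearest to Ckb were Akap2 at a distance of 0.066, Ttc9 at 0.121 and AI854703 at 0.131. Nearest to Slc6a8 were Hyal1 at 0.026, Ankrd6 at 0.067 and Rptoros at 0.157. Nearest to Ckmt1 were Gdnf at 0.293, Fat4 at 0.332 and Corin at 0.344, and no gene lay within 0.2 of it; with a pseudocount of 10, 3 genes did (Corin at 0.120, Gdnf at 0.153 and Zbtb32 at 0.166). With the pseudocount of 1, 135 genes lay within 0.2 of Gatm, led by Phlda3 (0.027), Krtcap3 (0.028) and Sulf2 (0.029), and 266 lay within 0.2 of Gamt, led by Zfp418 (0.014), Dhx32 (0.024) and Wwc2 (0.027). These distances describe 3 means per gene and carry no test.

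Position in the genome was also looked at, through the 2 nearest protein-coding genes on each side, a choice made after the members' values were known. Of 20 neighbours 19 were tested. Against macrophages 3 were called higher and 2 lower in osteoclasts, beside 14.5% and 14.7% of all genes. Against dendritic cells 6 were called higher and 3 lower in osteoclasts (16.8% and 20.1% of all genes). Between dendritic cells and macrophages 4 were called higher and 3 lower in dendritic cells (20.3% and 16.4% of all genes). The counts in both comparisons with macrophages thus lie near the shares of all genes. Trmt61a, a subunit of a tRNA methyltransferase that lies 5767 bases from Ckb, had a mean of 433 in osteoclasts, 192 in dendritic cells and 227 in macrophages by the authors' deposited table. It was called higher in osteoclasts than in macrophages (0.92 ± 0.30, adjusted p = 0.0103) and than in dendritic cells (1.15 ± 0.30, adjusted p = 0.000538) by the authors' deposited table. Mark3, on the other side of Ckb, was called in neither (adjusted p = 0.623 and 0.664 by the authors' deposited table). Beside Ckmt1, Ppip5k1, an inositol phosphate kinase, had means of 631, 484 and 492 in osteoclasts, dendritic cells and macrophages by the authors' deposited table, and was called higher in osteoclasts than in macrophages (0.36 ± 0.13, adjusted p = 0.0254). Beside Gatm, AA467197 had means of 29.9 in osteoclasts, 14068 in dendritic cells and 115 in macrophages by the authors' deposited table. Like Gatm, it was called lower in osteoclasts than in macrophages (-1.77 ± 0.55) and than in dendritic cells (-8.26 ± 0.55). It was called higher in dendritic cells than in macrophages, where Gatm itself was not called. Slc28a2 was called lower in osteoclasts than in macrophages (-0.86 ± 0.32) but higher than in dendritic cells (1.30 ± 0.32). Slc30a4 was called lower in osteoclasts only against dendritic cells (-1.56 ± 0.21), and Gm14085 was called in neither. Beside Slc6a8, Dusp9, a phosphatase of MAP kinases 29636 bases away, averaged 230 in osteoclasts, 62.2 in dendritic cells and 68.6 in macrophages by the authors' deposited table. It was called higher in osteoclasts than in macrophages (1.68 ± 0.40, adjusted p = 0.000231) and than in dendritic cells (1.82 ± 0.40, adjusted p = 3.37e-05). Pnck, nearer to Slc6a8, was called in neither (adjusted p = 0.481 and 0.996). Its means of 1.25 in osteoclasts, 1.28 in dendritic cells and 2.93 in macrophages are too low to tell. Bcap31, 3676 bases away on the other side, was called lower in osteoclasts than in dendritic cells (-0.43 ± 0.08, adjusted p = 1.34e-07). It was not called against macrophages. Of the 4 neighbours of Gamt, 0 were called in either comparison of osteoclasts by the authors' DESeq2 test, where the lowest adjusted p was 0.0519 (Dazap1).

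The genes that supply or compete for arginine and glycine, the substrates of Gatm, were higher in osteoclasts than in macrophages in 8 of 15 cases tested and lower in 3 (median log2 fold change 0.75). Ass1, which remakes arginine from citrulline, had means of 3640 in osteoclasts, 16673 in dendritic cells and 941 in macrophages by the authors' deposited table. It was higher in osteoclasts than in macrophages (1.94 ± 0.19, adjusted p = 1.87e-21), and Amt of the glycine cleavage system was lower (-1.04 ± 0.34, adjusted p = 0.0113), by the authors' deposited table. Against dendritic cells 5 of 15 were higher and 5 lower in osteoclasts (median -0.10). Gcsh, also of the glycine cleavage system, was higher (1.33 ± 0.17, adjusted p = 7.12e-14 by the authors' deposited table). Arg1, the arginase that splits arginine, averaged 68.2 in osteoclasts and 41909 in dendritic cells by the authors' deposited table, a log2 fold change of -8.97 ± 0.39 (adjusted p = 1.43e-115). Between dendritic cells and macrophages 5 of 15 were higher and 1 lower in dendritic cells (median 0.20). Arg1 was higher there (9.35 ± 0.39, adjusted p = 3.03e-124) and Gcsh lower (-0.58 ± 0.17, adjusted p = 0.00249) by the authors' deposited table. Nos2, the inducible nitric oxide synthase, had means of 33.5 in osteoclasts, 1530 in dendritic cells and 2.92 in macrophages, and no p by the authors' deposited table. The called share of this list was 73.3%, 66.7% and 40% in these comparisons, beside 29.3%, 36.9% and 36.7% of all genes. Between dendritic cells and macrophages it thus lay near the share of all genes.

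Of the methyl donor cycle, which supplies Gamt, 2 of 9 genes were higher and 1 lower in osteoclasts against macrophages (median 0.19), 3 of 10 higher and 2 lower against dendritic cells (median 0.29), and 1 of 10 higher and 3 lower in dendritic cells against macrophages (median 0.05). Calls in either direction thus made up 33.3%, 50% and 40% of the list, against 29.3%, 36.9% and 36.7% of all genes in these comparisons. Ahcy, which clears the S-adenosylhomocysteine left by methyltransferases, was higher in osteoclasts than in macrophages, with means of 510 and 241 (1.07 ± 0.21, adjusted p = 2.81e-06 by the authors' deposited table). Mtr, methionine synthase, was higher in osteoclasts than in dendritic cells (0.88 ± 0.12, adjusted p = 1.65e-12) and lower in dendritic cells than in macrophages (-0.68 ± 0.12, adjusted p = 7.67e-08), by the authors' deposited table. Nnmt, another methyltransferase that uses S-adenosylmethionine, held 112 reads over the dendritic cell libraries, 1 over the macrophage libraries and 0 over the osteoclast libraries. Its calls followed those counts (adjusted p = 2.38e-10 for osteoclasts against dendritic cells and 4.92e-10 for dendritic cells against macrophages by the authors' deposited table).

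Other enzymes pass phosphate between nucleotides. Of the adenylate and nucleoside diphosphate kinases, 4 of 14 were higher and 1 lower in osteoclasts against macrophages (median 0.19), 3 of 15 higher and 3 lower against dendritic cells (median 0.08), and 7 of 15 higher and 2 lower in dendritic cells against macrophages (median 0.20). The shares called were 35.7%, 40% and 60%, beside 29.3%, 36.9% and 36.7% of all genes, so the 2 comparisons of osteoclasts lie near the share of all genes. Nme4, a mitochondrial nucleoside diphosphate kinase, had means of 295, 68.1 and 553 in osteoclasts, dendritic cells and macrophages by the authors' deposited table. It was lower in osteoclasts than in macrophages (-0.90 ± 0.18, adjusted p = 6.49e-06), higher than in dendritic cells (2.09 ± 0.20, adjusted p = 4.41e-25) and lower in dendritic cells than in macrophages (-2.99 ± 0.19, adjusted p = 1.07e-51), by the authors' deposited table. Ak8, an adenylate kinase, averaged 60.1 in osteoclasts and 601 in dendritic cells (-3.25 ± 0.32, adjusted p = 1.76e-23 by the authors' deposited table).

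The mitochondrial ADP/ATP carriers and outer membrane pores, which pass the nucleotides and creatine that Ckmt1 works on, were higher in osteoclasts than in macrophages in 5 of 6 cases and lower in 0 (median 0.42), and higher in dendritic cells than in macrophages in 5 of 6 and lower in 0 (median 0.41). These calls made up 83.3% of the list in each comparison, beside 29.3% and 36.7% of all genes. Slc25a5, an ADP/ATP carrier, had means of 8138 in osteoclasts, 9630 in dendritic cells and 3897 in macrophages by the authors' deposited table. It was higher in osteoclasts than in macrophages (1.06 ± 0.15, adjusted p = 2.01e-10) and higher in dendritic cells than in macrophages (1.30 ± 0.15, adjusted p = 4.92e-16) by the authors' deposited table. Between osteoclasts and dendritic cells 0 of 6 were called by the authors' DESeq2 test, beside 36.9% of all genes. Of the 6, 0 had an unadjusted p under 0.05. The one with the highest mean, Vdac2, had means of 11065 and 12132 (-0.13 ± 0.10, 95% interval -0.33 to 0.07, adjusted p = 0.329 by the authors' deposited table). With the totals of the means made equal, 1 of these 6 was called higher in osteoclasts than in dendritic cells, and 3 rather than 5 were called higher in dendritic cells than in macrophages. Reads that match processed pseudogenes make the values of such abundant genes uncertain, since how they were assigned is not stated by any source used here.

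**Figure D4:**
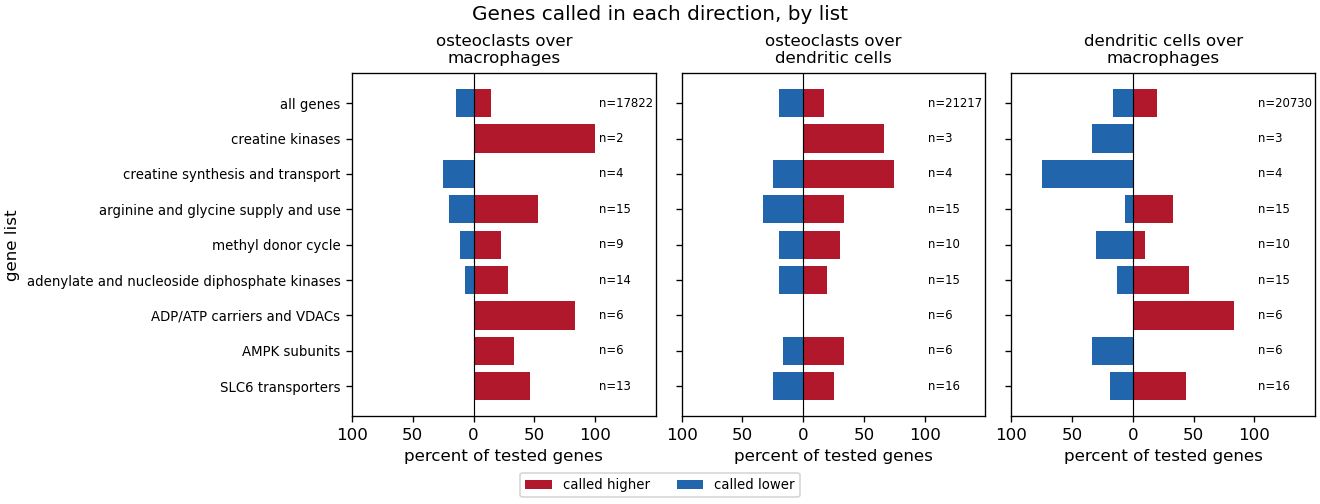
Percent of tested genes called higher (right of 0) or lower (left of 0) in each comparison, for all genes and for 8 gene lists of creatine and phosphate metabolism, with n the number tested. Carriers and pores are called higher in 5 of 6 cases against macrophages in both osteoclasts and dendritic cells. Of all genes, 14.5% and 20.3% are called higher in these comparisons. Between osteoclasts and dendritic cells 0 of 6 carriers and pores are called, beside 36.9% of all genes.

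AMPK is the kinase that senses a fall in ATP. In osteoclasts 2 of 6 subunits tested were higher than in macrophages and 0 lower (median 0.06), and 2 were higher than in dendritic cells and 1 lower (median 0.03). In dendritic cells 0 of 6 were called higher and 2 lower than in macrophages (median -0.07). The shares called were 33.3%, 50% and 33.3%, beside 29.3%, 36.9% and 36.7% of all genes. The catalytic subunit Prkaa2 had 403, 552, 426 and 291 normalised reads in the osteoclast libraries, 11.2, 27.5, 26.5 and 13.3 in the dendritic cell libraries and 125, 133, 151 and 135 in the macrophage libraries. The 3 cell types did not overlap. Osteoclasts were higher than macrophages (1.60 ± 0.23, adjusted p = 2.22e-10) and higher than dendritic cells (4.34 ± 0.27, adjusted p = 5.03e-54), and dendritic cells lower than macrophages (-2.73 ± 0.28, adjusted p = 2.86e-21), by the authors' deposited table. Prkab1, a regulatory subunit, was lower in osteoclasts than in dendritic cells (-0.36 ± 0.13, adjusted p = 0.0131 by the authors' deposited table), a call lost with the totals made equal (adjusted p = 0.309).

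Slc6a8 belongs to the SLC6 family of sodium- and chloride-dependent transporters. Of the family, 6 of 13 tested were higher and 0 lower in osteoclasts than in macrophages (median 0.73), 4 of 16 were higher and 4 lower (2 with the filter on low means) in osteoclasts than in dendritic cells (median -0.60), and 7 of 16 were higher and 3 lower in dendritic cells than in macrophages (median 1.25). Calls in either direction made up 46.2%, 50% and 62.5% of the tested family, beside 29.3%, 36.9% and 36.7% of all genes. Slc6a12, a carrier of betaine and GABA, had means of 362 in osteoclasts, 1549 in dendritic cells and 6.3 in macrophages by the authors' deposited table. It was higher in osteoclasts than in macrophages (5.63 ± 0.34, adjusted p = 1.18e-57), lower than in dendritic cells (-2.08 ± 0.23, adjusted p = 4.99e-18) and higher in dendritic cells than in macrophages (7.70 ± 0.34, adjusted p = 1.46e-110), by the authors' deposited table. Slc6a17, a transporter of neutral amino acids, held 280, 447, 218 and 81 reads in osteoclasts, 1, 0, 0 and 0 in dendritic cells, and 35, 37, 122 and 23 in macrophages. It was called higher in osteoclasts than in dendritic cells (adjusted p = 3.5e-23 by the authors' deposited table). Slc6a6, the taurine transporter, had means of 40487, 24474 and 47760 in osteoclasts, dendritic cells and macrophages by the authors' deposited table. It was lower in dendritic cells than in macrophages (-0.96 ± 0.12, adjusted p = 9.05e-14 by the authors' deposited table).

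Markers of several other cell types differed between the 3 cell types. Of 9 neutrophil markers, 8 were called higher in dendritic cells than in macrophages by the authors' deposited table, beside 20.3% of all genes. Their summed mean was 77.9 in osteoclasts, 14761 in dendritic cells and 92.7 in macrophages, with Elane at 0 in osteoclasts and Camp and Ly6g at 0 in macrophages. Of 7 mast cell and basophil markers, 5 were called higher in dendritic cells than in macrophages by the authors' deposited table, beside 20.3% of all genes. They summed to 75.9 in osteoclasts, 778 in dendritic cells and 8.03 in macrophages. The dendritic cell libraries ran from 597 to 1140 in this sum, and only Tpsab1 was at 0 in them. Tpsab1, a mast cell tryptase, carried most of the osteoclast sum, with 96, 108, 40 and 11 reads in the osteoclast libraries and 0 in all others. Striated muscle markers summed to 8 in osteoclasts, 77.5 in dendritic cells and 23.1 in macrophages, with Myh4 at 0 in all 3. Tnnt3 carried these sums (4.25, 73.9 and 22.6), and Acta1 ran the other way (3.00, 0.512 and 0.240). B cell markers summed to 68.1 in osteoclasts, 336 in dendritic cells and 939.7 in macrophages. Against macrophages 2 of 3 tested were called lower in osteoclasts, beside 14.7% of all genes. Against dendritic cells 2 of 4 tested were called lower in osteoclasts, beside 20.1% of all genes. Dendritic cells had 2 of 4 tested called lower against macrophages, beside 16.4% of all genes. Megakaryocyte markers summed to 575 in osteoclasts, 3350 in dendritic cells and 3342 in macrophages, mostly Pf4, with Gp9 at 0 in all 3. Of the 3 tested, osteoclasts had 3 called lower against dendritic cells and 1 against macrophages, and dendritic cells had 2 called higher against macrophages. The shares of all genes called in those directions were 20.1%, 14.7% and 20.3%. Endothelial markers summed to 296 in osteoclasts, 604 in dendritic cells and 266 in macrophages. Pecam1 (7.24, 495 and 21.3) and Cdh5 (9.24, 34.2 and 24.4) were highest in dendritic cells, and Kdr (280, 75 and 221) was lowest there. Stromal and osteoblast markers summed to 382, 1032 and 329 in the same order. Runx2 carried these sums (378, 1008 and 320), with Alpl and Bglap at or near 0. Col1a1, Col1a2 and Col3a1 were scarce, and also highest in dendritic cells. T and NK cell markers summed to 23.5, 57.6 and 10.7. Cd2 carried these sums (23.5, 56.6 and 10.7), with Cd3e, Cd3g and Ncr1 at or near 0. Erythroid markers summed to 0.997, 6.89 and 2.44. The part of these markers in the values of the creatine genes was not tested. Osteoclast markers with a mean of at most 500 in macrophages, 8 of 9, summed to between 1070 and 1450 in the macrophage libraries. In macrophage libraries a to d these sums were 1170, 1120, 1450 and 1070, beside 6, 1, 0 and 2 reads of Ckmt1. A link between them was not tested.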

How the data were processed

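The deposited file is a table of the authors' pairwise comparisons. Per the file headers its columns hold, by gene and pair of cell types, both means, the log2 fold change and the p-value with and without adjustment. The deposited means are a signal per gene, counts divided by size factors and averaged over 4 libraries, which follows from the values. The submitters' processing notes name DESeq2 2.13, Cufflinks 2.1.1, TopHat2, Bowtie2 and bcl2fastq, with the build GRCm38, and the kit was stranded per the labels; no source used here states the strand setting, the annotation or the handling of reads with several matches. The deposited fold changes run macrophages over dendritic cells and were turned to dendritic cells over macrophages. The planned count tests could not be run, since the table has no column per library. Calls are the authors' DESeq2 calls at adjusted p under 0.05. An adjusted p was given for 17822 of 46072 genes in osteoclasts against macrophages and 21217 in osteoclasts against dendritic cells. For dendritic cells against macrophages it was given for 20730, and in no comparison for every gene with a p-value.

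Standard errors were implied from the authors' p through the normal quantile, which assumes a two-sided Wald test; folds are ratios of the authors' means. For means of at most 500, whole reads of the 4 libraries were recovered as the single set that gives the deposited 15 digits. In a trial on simulated reads, recovery succeeded for 200 of 200 genes per cell type, with 0 wrong. The trial built and solved its means with the same size factors, so it cannot show the effect of error in them. Draws at 0 or above 500 were replaced by a set with a single read. Library letters a to d follow size factors (0.9750 to 1.0432) and carry no replicate number. The recovered reads of the 4 libraries differed from one another. The 95% intervals on log2 fold changes use the standard errors implied by the authors' p. Bounds for Slc16a12 allow for 3 reads in the cell type at 0 and take the other mean as exact. A symbol matched 45138 identifiers and 934 had none; positions and exon lengths are from GENCODE M21 on GRCm38, and promoters from RefSeq on GRCm38.p6.

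The genes and lists were chosen with earlier results of these data known. Named besides the 5 genes are Ckm, Ckmt2 and, per list and comparison, the called gene of lowest p on either side or, with none called, the one of highest mean; the 3 nearest profiles per gene (mean of at least 10; Gm, Rik, ribosomal and mitochondrial symbols left out); and markers. Slc16a12, Nos2 and genome neighbours were named outside that rule. Some genes that the rule names are not reported here. Alternatives were adjustment over all p-values, a filter on low means, upper-quartile and total scaling, a threshold of 0.01, pseudocounts of 1 and 0.1, and leaving out libraries. Python 3.11.15, scipy 1.17.1 and numpy 2.4.6 were used.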

Additional observations from a re-analysis of the deposited data

Results flagged for a closer look

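Among 32 sets of 4 libraries of the named genes, 4 had a library whose gap to its nearest neighbour passed Dixon's 95% critical value. That value is made for normally distributed values, and a set with reads in only 1 library always passes it. The number flagged thus cannot be set against a chance rate. In macrophages Slc6a17 had 119 normalised reads in library c against 22.6 to 36 in the others. The remaining sets rest on 1 read each: Ckm in macrophages (0.974 in library b), Nnmt in macrophages (0.974) and Slc6a17 in dendritic cells (1.02), with the other 3 libraries at 0. No set of Ckmt1 or Gamt was flagged.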

How the results depend on the processing

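The counts of the 5 genes and of all genes called changed by at most 1.5 times under each of the 5 alternatives to adjustment, filter, scaling and threshold. This limit is wide: with the totals made equal, all genes called higher in osteoclasts than in dendritic cells went from 3554 to 5321. Of the 15 results on single members, called or not, all but 2 kept their side of the threshold under these alternatives. Slc6a8 passed in osteoclasts against macrophages with the totals made equal (log2 fold change 0.72, adjusted p = 0.0491). Gamt in osteoclasts against dendritic cells missed the threshold of 0.01 (adjusted p = 0.0129). No named gene changed direction where called. Leaving out 1 library at a time, the log2 ratio ran from 5.23 to 6.21 for Ckmt1 in osteoclasts against macrophages, from 5.95 to 6.77 against dendritic cells, and from -1.24 to 0.03 for dendritic cells against macrophages. For Gamt it ran from -0.46 to -0.23, from 0.49 to 0.79 and from -1.14 to -0.83 in the same comparisons. Without macrophage library c the log2 ratio of Slc6a17 was 3.02 in place of 2.25 for osteoclasts against macrophages, and -4.66 in place of -5.42 for dendritic cells against macrophages. Leaving out libraries was not run for Ckb, Gatm and Slc6a8, whose reads per library were not recovered. No paired analysis was possible because the columns carry no replicate numbers, although the cell types of an experiment shared a mouse. With a pseudocount of 10, 3 genes lay within 0.2 of Ckmt1 in place of 0, the 3 profiles nearest to Ckb were Ttc9, Msi2 and Akap2, and those nearest to Slc6a8 Hyal1, Pde10a and Arhgef19. In an alternative chosen after seeing the data, the bound of Slc16a12 without 1 library ran from 6.09 to 9.16 for osteoclasts above dendritic cells and from 5.11 to 10.2 for dendritic cells below macrophages. Some small list counts moved: in osteoclasts against macrophages at the threshold of 0.01, arginine and glycine genes called lower came to 0 in place of 3 and adenylate and nucleoside diphosphate kinases called higher to 2 in place of 4. With the filter on low means, SLC6 transporters called higher in dendritic cells against macrophages came to 3 in place of 7, and those called lower in osteoclasts against dendritic cells to 2 in place of 4. With the totals made equal, methyl donor genes called higher in osteoclasts against dendritic cells came to 5 in place of 3. The cause was not tested.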
